A study of Mus musculus with 6 samples.

Results

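The hairpins of miR-151, miR-28a and miR-708 are microRNA (miRNA) precursors that evolved from LINE-2 (L2) repeats, an old class of mammalian retrotransposon. They were followed here in cultured macrophages of ApoE-KO (EKO) and wild-type (WT) mice. Each hairpin can give a mature miRNA from its 5′ side (5p arm) and from its 3′ side (3p arm), so 6 mature mouse names were taken: mmu-miR-151-3p, mmu-miR-151-5p, mmu-miR-28a-3p, mmu-miR-28a-5p, mmu-miR-708-5p and mmu-miR-708-3p, written below without the species prefix. They were chosen by name from the references of the count tables, with the levels and arm ratios of these libraries already known, so their values below describe them and stand as independent support for nothing. Of the 6 names, 5 had reads. These 5 lay in 6 of the 911 mature references that had reads in any library, because miR-28a-5p had an entry of its own and a joint entry with miR-28c, whose reads could not be assigned to 1 of the pair.

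The series compared macrophages from 3 EKO and 3 WT biological replicates, asking which miRNAs differ when ApoE, a lipid-carrying apolipoprotein that macrophages secrete, is missing. All 6 cultures were bone marrow-derived macrophages (BMDM) of age-matched male mice, 6 to 12 weeks old, grown in DMEM with 10% serum and differentiated with M-CSF, the macrophage growth factor, at 25 ng/mL over 6 days. The labels give the genotype with no allele and no strain. Apoe mRNA was not measured, so the genotype labels were not checked by any count. Reads assigned to mature miRNAs numbered 34651516, 39532548 and 37084444 in EKO, against 38440296, 41331600 and 40913120 in WT.

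As background, both arms of a hairpin are cut from 1 precursor, and usually 1 of them is loaded into an Argonaute protein and kept while the other is degraded. A loaded miRNA finds its target mRNAs mainly through its seed, bases 2 to 8, and represses them. Intronic miRNAs are cut from the transcript of a host gene or from a transcript of their own. The 3 hairpins lie on the same strand as a protein-coding host and overlap no exon of it in GENCODE M21 (GRCm38). Mir151 lies in an intron of Ptk2 on chromosome 15, the gene of focal adhesion kinase. Mir28a lies in an intron of Lpp on chromosome 16, which encodes a protein of focal adhesions, and Mir708 in an intron of Tenm4 on chromosome 7, which encodes a teneurin, a transmembrane protein of the nervous system.

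The mature sequences show how closely miR-28a and miR-708 are related. RefSeq (GRCm38.p6) gave a sequence for 4 of the 6 names, all on the plus strand: miR-28a-5p at chr16:24827868-24827889, miR-28a-3p at chr16:24827908-24827929, miR-708-5p at chr7:96249450-96249472 and miR-708-3p at chr7:96249496-96249517. Capitals mark the seed:
miR-28a-5p: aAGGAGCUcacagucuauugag
miR-708-5p: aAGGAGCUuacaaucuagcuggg
miR-28a-3p: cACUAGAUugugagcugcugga
miR-708-3p: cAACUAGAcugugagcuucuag

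miR-28a-5p and miR-708-5p shared the seed AGGAGCU, and no other mature mouse miRNA in the RefSeq table had it. That table had no entry under the names used here for miR-28c or the miR-151 arms, so the search may not cover them. Over their first 22 bases, counted from the 5′ end, 16 were identical, and the 6 differences with miR-28a-5p first were C9U, G13A, U18G, U19C, G20U and A21G. The 3p arms had different seeds, ACUAGAU in miR-28a-3p and AACUAGA in miR-708-3p. A run of 13 bases of miR-28a-5p, positions 5 to 17, also occurred in the reverse complement of miR-708-3p.

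miR-151-3p was by far the most abundant of the 6 names, and its level was higher in every EKO library than in any WT library. The deposited estimated counts gave it 807649, 743380 and 497498 reads in the EKO libraries, against 384325, 389949 and 281403 reads in the WT libraries. Levels below are counts scaled to a library total of 1e+06 mature reads (CPM) and then by TMM, a per-library factor that evens out composition. On this scale miR-151-3p had 24884, 18569 and 13108 CPM in EKO, against 9913, 9688 and 6561 CPM in WT. The groups did not overlap: the lowest EKO library lay 1.32-fold above the highest WT library. The spread within a genotype was larger than this gap, since the highest library was 1.90-fold above the lowest in EKO and 1.51-fold in WT. miR-151-3p ranked 9th, 10th and 15th among all mature references in the EKO libraries, and 16th, 15th and 20th in the WT libraries.

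In the fit over all 575 tested miRNAs (edgeR quasi-likelihood test), the log2 fold change of miR-151-3p, EKO over WT, was 1.11 ± 0.25 (SE, n = 3 libraries per genotype), with a Benjamini-Hochberg adjusted p of 0.0766. This missed the threshold of 0.05, and 0.0766 was also the smallest adjusted p that any of the 575 miRNAs reached. Other fits placed it on either side of the threshold. DESeq2 gave an adjusted p of 0.0003 and limma-voom one of 0.041, while leaving out 1 library at a time gave edgeR values between 0.0277 (without EKO replicate 3) and 0.285, of which the first alone passed. The fold change was positive in each of 15 other fits (scalings, filters, count columns, tools and left-out libraries), with a log2 value between 0.87 and 1.32, and passed in 5 of them. In bulk RNA, more cells with a given miRNA and more of it per cell cannot be told apart.

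**Figure D1:**
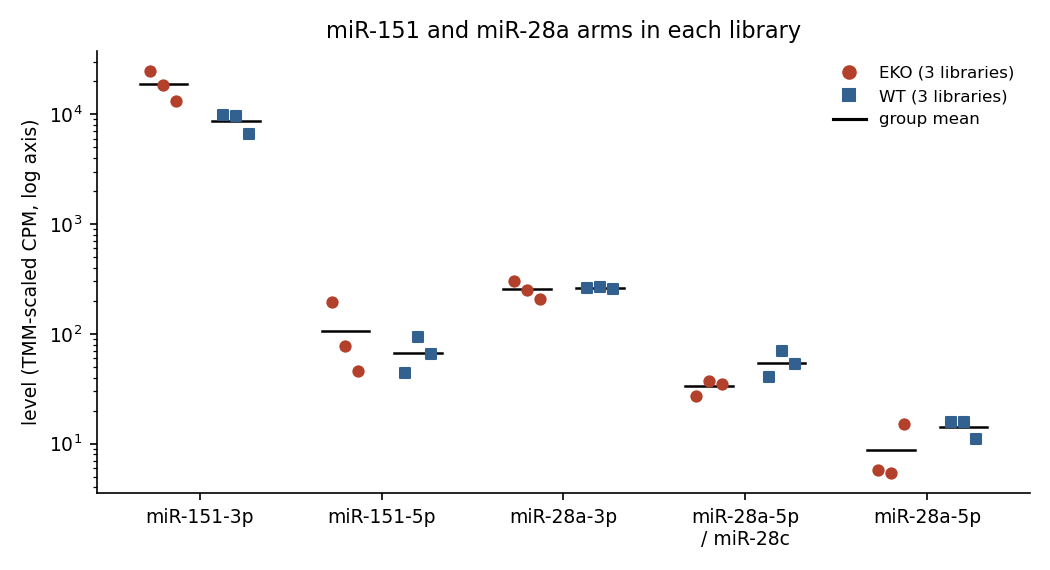
Level of each member with enough reads to be tested, as TMM-scaled CPM on a log axis, in the 3 EKO libraries (circles) and the 3 WT libraries (squares), with a bar at the group mean. miR-151-3p averages 18854 CPM in EKO and 8721 CPM in WT, and all 3 EKO points lie above the WT points, while miR-151-5p and miR-28a-3p overlap between the genotypes.

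The other arm of the same hairpin, miR-151-5p, was far rarer, and its EKO libraries were spread widely, the highest 4.31-fold above the lowest. It had 197, 77.3 and 45.6 CPM in the EKO libraries, against 44.4, 92.8 and 65.2 CPM in the WT libraries. The high EKO mean came from 1 library, EKO replicate 1, and the genotypes overlapped. The fitted log2 fold change was 0.66 ± 0.52 (SE, edgeR adjusted p = 0.611), and without EKO replicate 1 it was -0.13. The same EKO library also had the highest miR-151-3p level, but EKO replicate 3 ranked above all WT libraries for the 3p arm and below WT replicates 2 and 3 for the 5p arm.

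miR-28a-3p was the most even of the 5 tested references. It had 305, 252 and 208 CPM in the EKO libraries, against 263, 266 and 257 CPM in the WT libraries. The WT libraries lay within 1.03-fold of each other and inside the range of the EKO libraries, which spanned 1.47-fold. It averaged 255 ± 48.6 CPM in EKO, against 262 ± 4.48 CPM in WT (SD over 3 libraries), and the fitted log2 fold change was -0.04 ± 0.16 (SE, edgeR adjusted p = 0.963). Its sign is not settled: it was 0.046 with DESeq2 and 0.089 without EKO replicate 3.

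The reads of miR-28a-5p came in 2 entries that both had lower EKO means, and neither passed the threshold. The joint entry with miR-28c had 27.1, 37.5 and 35.2 CPM in the EKO libraries, against 40.8, 70.2 and 52.8 CPM in the WT libraries. Each EKO value was below each WT value, but the highest EKO value was 0.920 of the lowest WT value, and the fit gave a log2 fold change of -0.71 ± 0.27 (SE, edgeR adjusted p = 0.157), or -0.47 without WT replicate 2. With DESeq2 size factors in place of TMM the highest EKO value, 39.9 CPM, was above the lowest WT value, 39.5 CPM. With upper-quartile factors, or with total read counts in place of the estimated ones, the 2 genotypes overlapped as well.

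The entry of miR-28a-5p alone had 5.73, 5.40 and 15.2 CPM in the EKO libraries, against 15.7, 15.7 and 11.0 CPM in the WT libraries. Here EKO replicates 1 and 2 were low and EKO replicate 3 was at the WT level, so the genotypes overlapped, and the log2 fold change was -0.68 ± 0.50 (SE, edgeR adjusted p = 0.581). Single EKO libraries moved it, to -1.34 without EKO replicate 3 (adjusted p = 0.102), -0.44 without EKO replicate 1 and -0.41 without EKO replicate 2. These values rested on few reads, 186, 216 and 578 in EKO and 607, 632 and 471 in WT. The joint entry held 82.6%, 87.4% and 69.8% of the reads of the 2 entries in EKO, and 72.3%, 81.7% and 82.8% in WT. Added together, the 2 entries had 32.8, 42.9 and 50.4 CPM in EKO, against 56.5, 85.9 and 63.8 CPM in WT. The sum was thus lower in each EKO library than in any WT library, and its log2 fold change was -0.70 ± 0.25 (SE, edgeR adjusted p = 0.151). How many of the joint reads came from miR-28c cannot be told from these counts.

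The other mouse miRNAs numbered 28, miR-28b and miR-28c, had few reads in entries of their own. These levels leave out the joint entry of miR-28a-5p and miR-28c, whose miR-28c part is unknown. miR-28c, from an intron of Samd12 on chromosome 15, had 2.28, 5.87 and 1.63 CPM in the EKO libraries, against 1.32, 3.06 and 3.45 CPM in the WT libraries, with overlapping groups. The authors' counting splits reads that match several references. That split took away between 42.5% and 47.1% of the total miR-28c reads per library, so its level depends on the split. miR-28b had 2, 1 and 2 reads in the EKO libraries and 2, 0 and 6 reads in the WT libraries.

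miR-708 was at or near the limit of detection in both genotypes. miR-708-5p, the arm with the miR-28a-5p seed, had no row in any of the 6 tables and was counted as 0. A count of 0 allows up to 3 reads, which was 0.0759 to 0.0866 CPM in the EKO libraries and 0.0726 to 0.0780 CPM in the WT libraries. miR-708-3p had 1, 0 and 0 reads in the EKO libraries, and 64, 1 and 0 reads in the WT libraries. The 64 reads of WT replicate 1 came from 5 distinct read sequences and equalled 1.65 CPM, and the other 5 libraries had at most 1 read. miR-708-3p failed the filter on low counts and was not tested.

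Set against the whole table, the 5 tested references gave few calls. None had an edgeR adjusted p under 0.05, as for all 575 miRNAs (0.0% called). An unadjusted edgeR p under 0.05 was reached by 2 of the 5, miR-151-3p and the joint entry of miR-28a-5p, and by 21.4% of all tested miRNAs. The same 2 were the references whose EKO and WT libraries did not overlap, 1 higher and 1 lower in EKO, and 31.3% of all tested miRNAs had groups apart. DESeq2 called miR-151-3p alone among the 5, with 16.0% of all tested called, and so did limma-voom, with 5.57% called. With a stricter filter, a mean of at least 10 CPM, edgeR called miR-151-3p (adjusted p = 0.0231) and 23.5% of 251 miRNAs. That call was lost without EKO replicate 2 or any 1 of the WT libraries, with adjusted p between 0.0563 and 0.0954. The median log2 fold change of the 5 references was -0.04, with 2 above 0 and 3 below, and that of all tested miRNAs was -0.16. The median of all miRNAs moved with the scaling, to -0.08 with DESeq2 size factors and -0.18 with library totals alone.

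**Figure D2:**
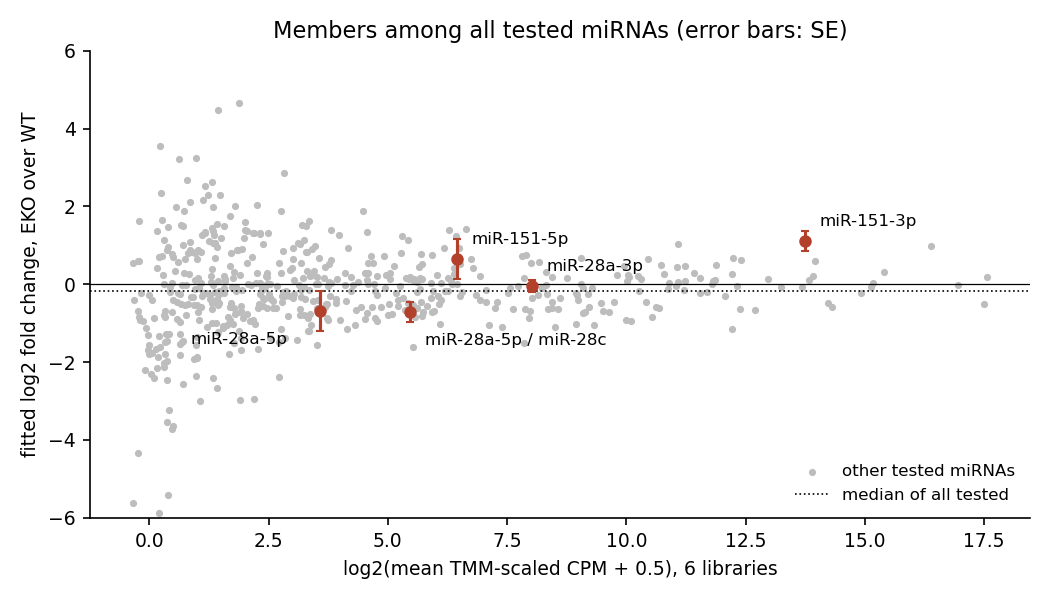
Fitted log2 fold change, EKO over WT, against the mean level for all 575 tested miRNAs (grey), with the 5 tested member references in red and their standard errors as bars. miR-151-3p stands at 1.11 among the most abundant miRNAs, miR-28a-3p lies at -0.04, and the entries of miR-28a-5p lie at -0.68 (own) and -0.71 (joint). A further 14 miRNAs lie outside the axis limit of 6.

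The preference between arms was compared within each library, where library scaling cancels. mir-151 was strongly 3p-sided: its 3p arm had 126, 240 and 287 reads per 5p read in the EKO libraries, against 223, 104 and 101 in the WT libraries. The mean log2 ratio was 7.69 ± 0.62 in EKO, against 7.05 ± 0.65 in WT (SD over 3 libraries), and the groups overlapped because WT replicate 1 lay between the EKO libraries. mir-28a was also 3p-sided but much less so, with 9.28, 5.87 and 4.12 reads of the 3p arm per 5p read in EKO, against 4.65, 3.09 and 4.03 in WT when both 5p entries were counted. Its mean log2 ratio was 2.60 ± 0.59 in EKO, against 1.95 ± 0.30 in WT (SD over 3 libraries), again with overlapping groups.

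Among the 118 hairpins with both arms tested, mir-151 ranked 11th and mir-28a 38th in 3p preference. Of these hairpins, 54 had more 3p than 5p reads, and the median log2 ratio was -0.46. The ratios of EKO and WT were apart in 28% of the 118, and in neither of these 2 hairpins. Ligation favours some sequences in such libraries, so a ratio between arms is a ratio of reads and not of molecules. For mir-708 no ratio could be read, since its 5p arm had no reads.

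**Figure D3:**
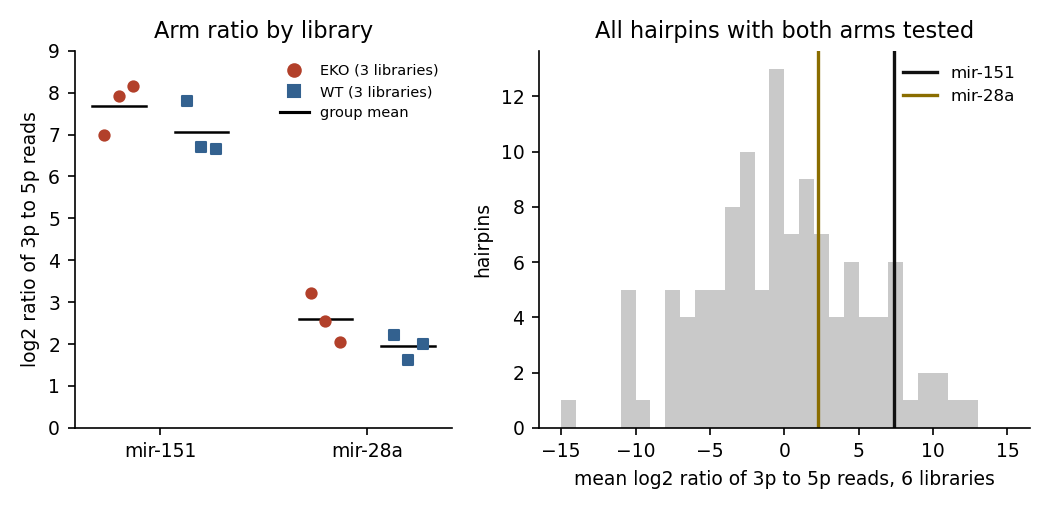
Left, log2 ratio of 3p to 5p reads of mir-151 and mir-28a in each EKO library (circles) and WT library (squares), with a bar at the group mean; right, the mean ratio over 6 libraries for all 118 hairpins with both arms tested. Both hairpins lie on the 3p side, mir-151 at 7.37 and mir-28a at 2.28, and the genotypes overlap in both.

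Summed over the 6 names, the L2-derived miRNAs took 2.38%, 1.92% and 1.37% of all mature reads in the EKO libraries, against 1.04%, 0.987% and 0.728% in the WT libraries. The groups did not overlap, with means of 1.89% ± 0.505 in EKO, against 0.917% ± 0.166 in WT (SD over 3 libraries). This sum is almost a measure of 1 arm: miR-151-3p made up 97.7% to 98.0% of it in EKO and 94.4% to 96.4% in WT.

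The tables also count the distinct read sequences behind each miRNA, that is, the end and length variants and sequencing errors of the same arm. miR-151-3p had 1057, 1060 and 1017 distinct sequences in the EKO libraries, against 1012, 1028 and 883 in the WT libraries, with overlapping groups. Total reads divided by this number give the reads per distinct sequence, with no scaling for depth. As the number differed little between libraries, for miR-151-3p this value largely restates its read counts. The average reads per distinct sequence were higher in EKO, at 764, 701 and 489, against 380, 379 and 319 in WT, with no overlap. Over the 406 tested miRNAs with reads in all 6 libraries, the groups were apart in 28.1%. miR-28a-3p had fewer distinct sequences in EKO, 190, 185 and 167, than in WT, 216, 191 and 215. Its reads per distinct sequence overlapped, at 51.3 ± 3.74 in EKO, against 51.5 ± 4.45 in WT (SD over 3 libraries). The joint entry of miR-28a-5p likewise had 24, 37 and 38 distinct sequences in EKO, against 46, 53 and 56 in WT. The number of distinct sequences is not scaled for depth, and it was lower in every EKO library than in any WT library for 32.5% of all tested miRNAs. The EKO libraries held 543 to 591 mature references with reads, against 668 to 698 in WT.

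**Figure D4:**
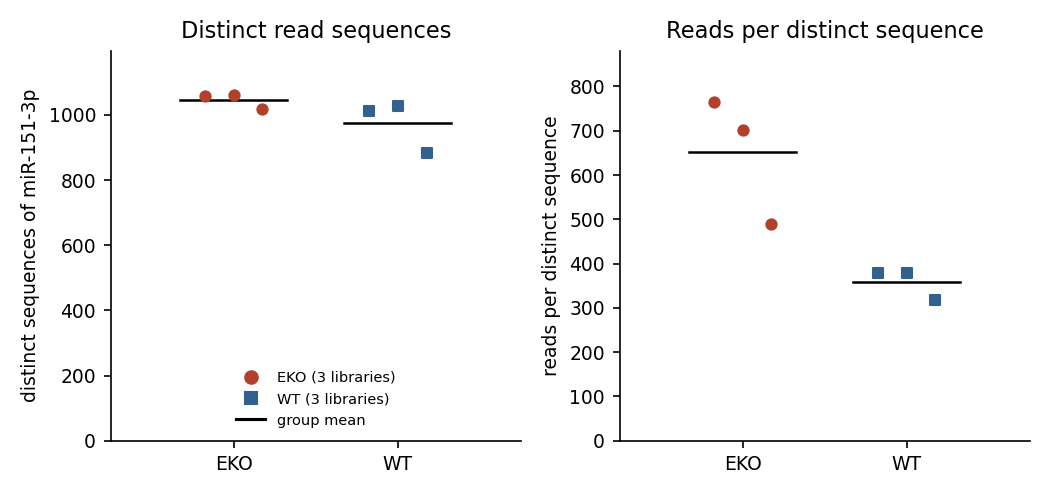
Distinct read sequences of miR-151-3p (left) and its reads per distinct sequence (right) in the 3 EKO and 3 WT libraries, with a bar at the group mean. The number of sequences overlaps between the genotypes, and the reads per sequence average 652 in EKO and 359 in WT with no overlap.

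The profile of miR-151-3p over the 6 libraries was compared with those of 250 other miRNAs averaging at least 10 CPM, by Pearson's r of log2(CPM + 0.5). These are descriptions over 6 libraries that share the EKO and WT grouping and the library scaling, and 28 of the 250 had an r above 0.9. The 5 most alike were miR-148a-3p (0.997), miR-744-5p (0.996), miR-10a-5p (0.994), miR-674-3p (0.992) and miR-1198-5p (0.989). The nearest of them, miR-148a-3p, had 146226, 111025 and 83961 CPM in EKO, against 62088, 67018 and 43541 CPM in WT. All 5 had their EKO libraries above their WT libraries, and in each EKO replicate 1 was the highest and WT replicate 3 the lowest. The partner arm miR-151-5p had an r of 0.61 with miR-151-3p and miR-28a-3p one of 0.29. The values were negative for the entries of miR-28a-5p, at -0.73 for its own entry and -0.78 for the joint entry.

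**Figure D5:**
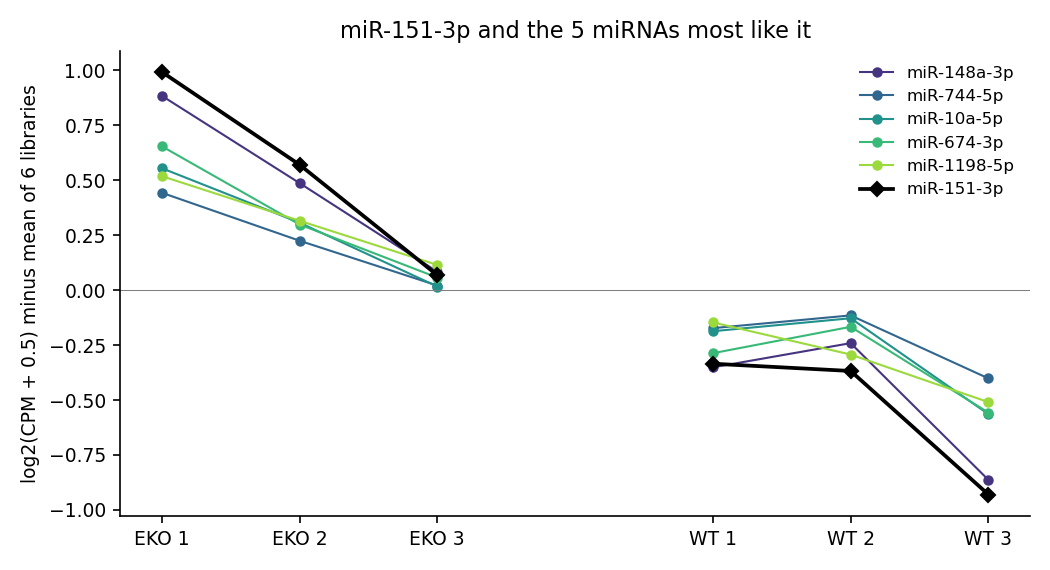
log2(CPM + 0.5) of miR-151-3p (black diamonds) and of the 5 miRNAs with the highest Pearson r with it, each minus its own mean over the 6 libraries. All 6 are highest in EKO replicate 1 and lowest in WT replicate 3; lines join libraries of 1 genotype only to guide the eye and imply no order.

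A list of other miRNAs from host-gene introns was counted in the same way. Of 19 such arms from other hairpins, 16 were tested, among them miR-26a-5p, miR-26b-5p, miR-103-3p and miR-342-3p. None had an edgeR adjusted p under 0.05, 9 had an unadjusted p under 0.05, of which 2 were higher in EKO, and their median log2 fold change was -0.43. Over all 575 miRNAs an unadjusted p under 0.05 was found for 21.4%, and the median was -0.16. In 11 of the 16 the genotypes did not overlap, 2 higher and 9 lower in EKO, while over all tested miRNAs 12.5% were apart with EKO higher and 18.8% with EKO lower.

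The libraries also differed in marker miRNAs, given here as summed CPM per list. The myeloid and haematopoietic list, had all 6 members present, at 152701 to 167313 CPM in EKO and 213908 to 234719 CPM in WT. Most of that sum was miR-21a-5p, and 4 of the 6 had a fitted value lower in EKO and 2 one higher in EKO. miR-223-5p, usually the passenger arm of a myeloid miRNA, had more reads than miR-223-3p in every library here. It had 2669 to 2853 CPM in EKO, against 1868 to 2143 CPM in WT, and miR-223-3p 242 to 275 CPM in EKO, against 343 to 496 CPM in WT. Among the others, 3 of 3 lymphoid markers had reads, summing to 483 to 596 CPM in EKO and 679 to 764 CPM in WT, and 5 of 5 stromal markers, at 75.7 to 126 CPM in EKO and 174 to 231 CPM in WT. Most of the stromal sum was miR-143-3p, at 72.1 to 123 CPM in EKO and 157 to 216 CPM in WT. Of the 4 stromal markers tested, 3 had a fitted value lower in EKO and 1 had one higher in EKO. Both endothelial markers had reads, at 65.7 to 72.2 CPM in EKO and 74.1 to 79.3 CPM in WT, but miR-126a-5p only in WT replicate 1, at 0.464 CPM. Of the 5 muscle, neuron and liver markers, 3 had reads, at 103 to 171 CPM in EKO and 46.0 to 61.5 CPM in WT, mostly the hepatocyte miRNA miR-122-5p, with miR-133a-3p and miR-124-3p at 0. The erythroid list (3 of 4 with reads, miR-144-3p at 0) gave overlapping sums, 116 to 154 CPM in EKO and 129 to 158 CPM in WT. Most of that sum was the joint entry of miR-486a-5p and miR-486b-5p, at 111 to 148 CPM in EKO and 129 to 158 CPM in WT. miR-451a was rare but higher in each EKO library, at 6.32, 5.25 and 1.26 CPM, against 0, 0 and 0.560 CPM in WT. The epithelial list (6 of 6) also overlapped, at 122 to 170 CPM in EKO and 133 to 162 CPM in WT. The part of other cells in the miR-151 and miR-28a levels was not tested.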

How the data were processed

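Small RNA libraries (NEB kit) were made from column-purified total RNA, per the labels' protocols. The genome build was mm9 per the submitters' processing notes; which program aligned and counted the reads is not given in the sources used here. Per the file headers, each deposited table holds, for each reference, distinct read sequences, total read counts and estimated counts, where a read that matches more than 1 reference is split among them. These estimated counts, as deposited, were rounded to whole numbers for the fit. The deposited barcode counts sum to 0, so PCR copies were not removed, and the floors for a count of 0 cover counting error only. Stem-loop references (73) were left out, and 20 of the 911 mature references were joint entries. A reference missing from a table was taken as 0, with 3 reads as the limit of a count of 0.

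Members, lists and tests were chosen with earlier results of these data known. The fit used edgeR 4.0.16 (R 4.3.3): filterByExpr by genotype, TMM, glmQLFit and glmQLFTest over all 6 libraries, Benjamini-Hochberg adjustment over 575 miRNAs, threshold 0.05. A standard error is the log2 fold change divided by the square root of F. Arm ratios had 0.5 reads added to each arm, and that planned for mir-708 could not be computed. Named were the 6 members, the seed sharers, miR-28b, miR-28c and the 5 miRNAs with the highest r. Alternatives were DESeq2 1.42.0, limma-voom (limma 3.58.1), other scalings, filters and count columns, a block for the replicate number, and each library left out once; pairings of a mean of at least 10 CPM with other settings were added after seeing the data. The fit was checked on simulated counts. The series design calls the replicates biological, and the labels do not say that a number marks a pair, so the numbers were not taken as pairs. Same-numbered EKO and WT libraries deviated with correlations of -0.02, -0.03 and 0.05. These correlations weigh every tested miRNA alike whatever its level, so they cannot exclude a pairing. Host genes came from GENCODE M21 by gene name, and the deposited counts carry no coordinates. The host annotation of miR-28b is not reported here.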

Additional observations from a re-analysis of the deposited data

How the results depend on the processing

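The number of members called was 0 in the edgeR fit. It was 1, miR-151-3p, with DESeq2, with limma-voom, without the low-count filter, with a mean of at least 10 CPM, and with DESeq2 or limma-voom at that mean, while leaving out 1 library gave 0 to 1. In combination with that mean, chosen after seeing the data, leaving out 1 library gave 0 to 2: miR-151-3p was called without EKO replicate 1 (adjusted p = 0.0422) and without EKO replicate 3 (0.0022), and miR-28a-5p also without EKO replicate 3 (0.0326). The cause was not tested. Over all miRNAs edgeR called 0 of 575, DESeq2 92, limma-voom 32, edgeR without the filter 24 higher and 28 lower, and edgeR 59 of 251 at a mean of at least 10 CPM. The number of references whose genotypes did not overlap was 1 and not 2 with DESeq2 size factors, upper-quartile factors or total read counts, since the joint entry of miR-28a-5p then overlapped, and between 2 and 3 when 1 library was left out (3 without EKO replicate 1, EKO replicate 3 or WT replicate 3). Groups are apart more easily when 1 library is left out. The shares over all miRNAs in these settings, and those called with 1 library left out, are not given here, so these member counts have no background. miR-151-5p ranged between -0.13 and 1.02 when 1 library was left out, and turned to -0.13 without EKO replicate 1 and to -0.073 at a mean of at least 10 CPM without it. miR-28a-3p ranged between -0.18 and 0.089 when 1 library was left out. It turned positive, to 0.046 with DESeq2 and with DESeq2 size factors, 0.0064 with total read counts, 0.089 without EKO replicate 3, 0.044 with DESeq2 at a mean of at least 10 CPM, and, at that mean, 0.14 without EKO replicate 3, 0.029 without WT replicate 2 and 0.013 without WT replicate 3. The arm ratios and the summed level kept their direction in every alternative run.

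With the replicate number as a block, 1 member was called, miR-151-3p, at a log2 fold change of 1.09 ± 0.10 (SE) and an adjusted p of 9.83e-05, and over all miRNAs 26 were called higher and 36 lower. The labels do not say that a number marks a shared animal, day or batch, so the block is no basis for a call.

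Low read counts limit miR-708, miR-28b and the own entries of miR-28c and miR-28a-5p. Levels of different miRNAs are not on a common scale because of ligation, and 3 libraries per genotype limit every comparison.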
